A study of Mus musculus with 12 samples.

Results

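Tropomyosins, actinins and their partners hold actin filaments together and tie them to the cell surface, and 10 of their genes were followed in mouse vessels infused with angiotensin II. The 10 genes were Tpm1, Tpm2, Tpm3, Tpm4, Actn1, Actn4, Vcl, Flna, Cald1 and Tln1, taken by symbol from the 30702 genes of the array table, and each symbol was carried alone by 1 transcript cluster, the array's group of probes for a transcribed unit. All 10 passed the filter on dim signals that left 22066 genes for testing. Gene expression was measured in total RNA on 12 Affymetrix arrays, and signals are on a log2 scale, so that 1 unit is a doubling. Male C57BL/6 mice aged 8 to 10 weeks were untreated (day 0) or carried an osmotic pump that delivered angiotensin II, a peptide hormone that constricts arteries and raises blood pressure, at 1500 ng per kg per min for 1, 3 or 7 days. Each of these groups had 3 arrays, described as biological replicates. An arm with a vehicle pump was not given in the sources used here, and implanting the pump and infusing the hormone cannot be told apart. The vessel taken was not named either.

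Tropomyosin is a coiled rod that lies along the actin filament and governs which myosins and binding proteins reach it. Tpm1 and Tpm2 make the main tropomyosins of smooth muscle, while Tpm3 and Tpm4 make mostly the short forms of non-muscle cells. Caldesmon, from Cald1, binds actin and tropomyosin and restrains myosin. Alpha-actinins (Actn1, Actn4) and filamin A (Flna) cross-link filaments, and talin (Tln1) and vinculin (Vcl) couple them to integrins at adhesion sites, which in the artery wall anchor each muscle cell to the elastic matrix. Several of these genes, Tpm1, Cald1 and Vcl among them, give muscle and non-muscle products by alternative splicing. A signal per gene does not separate these products, so the muscle and non-muscle forms compared here are genes, not splice forms.

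The arrays differed in more than the day. The mean signal of 6 smooth muscle markers (Myh11, Cnn1, Smtn, Lmod1, Des and Synm) lay between 12.33 and 12.67 at day 0, 10.30 and 12.22 at day 1, 9.72 and 11.02 at day 3, and 7.87 and 10.08 at day 7. All 6 lay above the median of the negative control features on every array but 1, day 7 replicate 2, where 1 did not. The median of positive minus negative control features, a measure of signal over background, was 2.56 to 2.64 at day 0 and lower on all treated arrays, down to 1.20 on day 7 replicate 1. Signal over background and infusion therefore cannot be told apart in the comparisons with day 0. Day 1 replicate 3 had smooth muscle markers near those of day 0 and a control difference of 2.51. The day 1 differences of the 10 genes from day 0 are given with and without it. Day 1 calls of markers, pattern neighbours and other lists are given only with it. The scale of the table ends at 19.93, and none of the 10 genes reached this ceiling on any array. Flna came closest, with a highest value of 19.22.

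Promoter sequence is shown for Tpm1, Tpm4, Vcl and Flna, as a muscle and a non-muscle tropomyosin gene that form a tested pair, the larger of the falls called at day 3, and the largest fall at day 7. The runs are the 250 bases before an annotated start of transcription, 5′ to 3′ on the gene's strand, from RefSeq on build GRCm38.p6: chr9:67049214-67049463 (minus strand) for Tpm1, chr8:72135038-72135287 (plus) for Tpm4, chr14:20929148-20929397 (plus) for Vcl and chrX:74246535-74246784 (minus) for Flna. For Tpm1, Vcl and Flna this start lies inside the annotated interval of the gene, whose 5′ end is at 67049672, 20929383 and 74249854. Capitals mark the CArG box, the element bound by serum response factor, and CATTCC, the core bound by TEAD factors, or its reverse complement GGAATG.
Tpm1: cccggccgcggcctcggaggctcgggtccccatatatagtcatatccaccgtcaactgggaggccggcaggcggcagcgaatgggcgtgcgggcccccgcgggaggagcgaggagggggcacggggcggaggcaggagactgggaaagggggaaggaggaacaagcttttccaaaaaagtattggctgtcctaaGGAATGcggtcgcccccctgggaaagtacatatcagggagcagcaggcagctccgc
Tpm4: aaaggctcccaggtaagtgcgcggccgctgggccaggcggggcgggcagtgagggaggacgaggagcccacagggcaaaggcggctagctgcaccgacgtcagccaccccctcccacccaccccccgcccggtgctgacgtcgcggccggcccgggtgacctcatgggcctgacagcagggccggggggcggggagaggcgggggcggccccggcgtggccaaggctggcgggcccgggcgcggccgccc
Vcl: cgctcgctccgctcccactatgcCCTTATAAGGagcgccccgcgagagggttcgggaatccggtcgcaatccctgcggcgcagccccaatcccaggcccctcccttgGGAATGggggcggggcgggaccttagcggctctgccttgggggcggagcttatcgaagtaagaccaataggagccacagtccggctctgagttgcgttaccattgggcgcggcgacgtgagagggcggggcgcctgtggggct
Flna: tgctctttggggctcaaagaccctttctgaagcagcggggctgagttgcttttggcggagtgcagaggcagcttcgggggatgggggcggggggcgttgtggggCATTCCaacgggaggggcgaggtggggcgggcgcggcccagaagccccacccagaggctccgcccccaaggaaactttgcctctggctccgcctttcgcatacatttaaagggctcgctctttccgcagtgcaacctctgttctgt
Both motifs were sought on both strands in the 12 windows that RefSeq gives for the 10 genes, 2 of them for Tpm3 and 2 for Cald1. The CArG box was counted only as an exact match: CC, then A or T letters, then GG, in the length of CCTTATAAGG. Near matches, such as ccatatatag in the Tpm1 run, were not counted. The CArG box was found in 1 window, that of Vcl, as CCTTATAAGG starting 227 bases upstream, and in 1.47% of the 32851 windows of all genes. CATTCC or its reverse was found in 5 windows, 56 bases upstream in Tpm1, 143 in Vcl, 146 in Flna, 153 in 1 window of Cald1 and 216 in Actn4, and in 12.6% of all windows. The windows of Tpm2, Tpm3, Tpm4, Actn1 and Tln1 held neither. A match is a run of letters only, and binding was not measured.

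By day 7, 8 of the 10 genes had fallen, by 2.32 to 4.86 log2 units, and the non-muscle tropomyosin genes Tpm3 and Tpm4 were the ones that had not. At day 1 only Tpm4 passed the test, and it rose. At day 3 Vcl and Tln1, the adhesion linkers, passed the test, and both fell. Tests were moderated tests in limma on all 22066 genes with Benjamini-Hochberg adjustment, and a call is an adjusted p under 0.05.

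**Figure D1:**
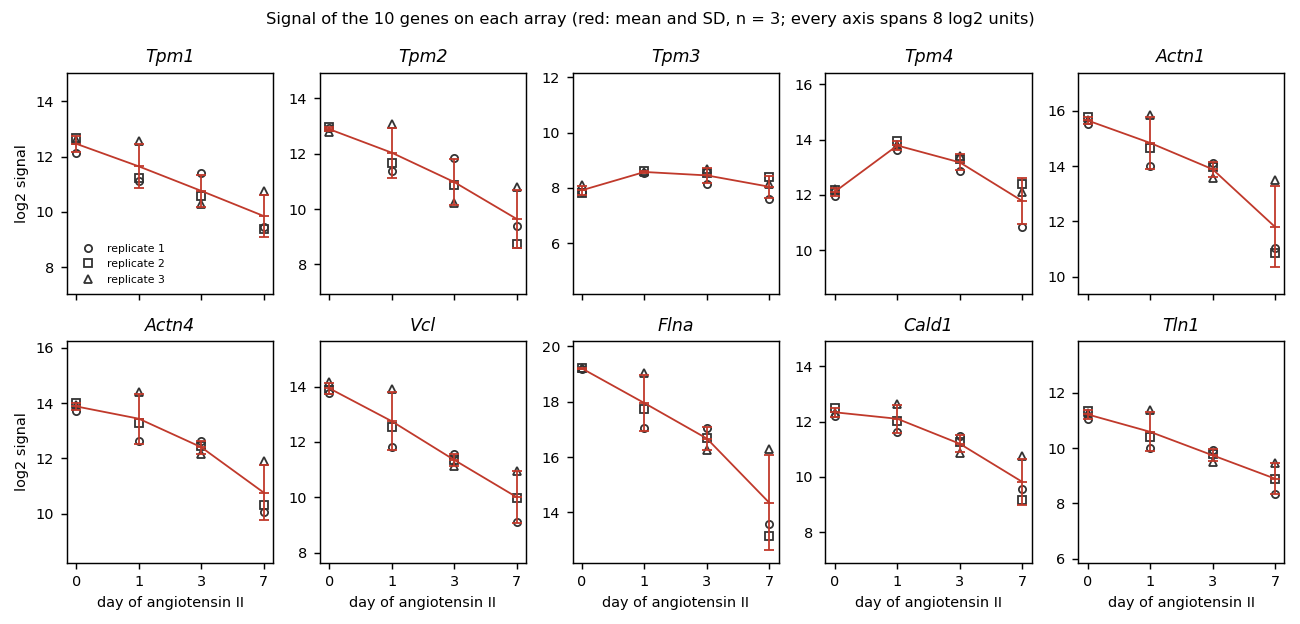
Log2 signal of each of the 10 genes on each array (open symbols, by replicate number) at day 0, 1, 3 and 7 (days spaced evenly), with the group mean and SD in red (n = 3), each axis spanning 8 log2 units. Actn1, Flna and the other 6 genes that fell step down towards day 7, whereas Tpm3 and Tpm4 are highest at day 1.

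Against day 0, 1 gene rose and 0 fell at day 1, where 1.99% of all genes tested were called higher and 1.63% lower, and 2 of the 10 had an unadjusted p under 0.05. Without day 1 replicate 3, 0 of the 10 were called, and 1105 of all genes, in place of 799. The day 1 differences of the 8 genes that fell later were then -1.28 for Tpm1, -1.37 for Tpm2, -1.32 for Actn1, -0.93 for Actn4, -1.77 for Vcl, -1.80 for Flna, -0.51 for Cald1 and -1.02 for Tln1. Each was larger by construction, since day 1 replicate 3 had the highest day 1 value of all 8 genes. All 3 day 1 arrays lay below the day 0 arrays for 1 gene and above them for 2, beside 11.5% and 11.8% of all genes. At day 3, 0 rose and 2 fell, against a background of 4.61% higher and 7.14% lower, and all 10 had an unadjusted p under 0.05. The day 3 arrays lay below all day 0 arrays for 8 genes and above them for 2, beside 21.4% and 23.3%. At day 7, 0 rose and 8 fell, against 12.1% higher and 13.2% lower, and the day 7 arrays lay below all day 0 arrays for the same 8, beside 20.5%. Among the 2155 genes with a mean signal of 10 or more, to which all of the 10 but Tpm3 belong, 24.6% were called lower at day 7. The median change of the 10 was -0.72 at day 1, -1.59 at day 3 and -2.86 at day 7, beside 0.01, 0.08 and 0.09 over all genes tested. The F test over the 3 treated days called 9 of the 10, beside 14.6% of all genes, and Tpm3 was the exception (adjusted p = 0.0926).

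The muscle tropomyosin genes fell together. Tpm2 gives the beta form that is abundant in arterial smooth muscle. Its signal was 12.93, 12.95 and 12.79 on the day 0 arrays. It was 11.38, 11.66 and 13.08 at day 1 and 11.86, 10.87 and 10.21 at day 3. It was 9.39, 8.75 and 10.79 at day 7. Day 1 replicate 3 lay above every day 0 array, whereas all 6 arrays of days 3 and 7 lay below. Relative to day 0, the change was -0.85 ± 0.61 at day 1 (SE, 3 arrays per group; adjusted p = 0.602) and -1.91 ± 0.61 at day 3 (adjusted p = 0.0737), neither called. At day 7 Tpm2 was 9.49-fold lower, a change of -3.25 ± 0.61 (adjusted p = 0.00691).

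Tpm1, the alpha tropomyosin gene, which heart muscle also uses, followed the same course. It read 12.14, 12.66 and 12.59 at day 0 and 11.13, 11.24 and 12.57 at day 1. It read 11.40, 10.59 and 10.29 at day 3 and 9.44, 9.37 and 10.74 at day 7. Day 1 replicate 3 lay among the day 0 arrays, and each day 3 and day 7 array lay below them. The change was -0.82 ± 0.48 at day 1 and -1.70 ± 0.48 at day 3 (adjusted p = 0.484 and 0.0501), neither of which passed. At day 7 it was -2.61 ± 0.48, 6.11-fold lower (adjusted p = 0.00652). Cardiac markers (Myh6, Myl7, Tnnt2, Tnni3 and Nppa) went the other way, and their mean lay between 5.72 and 5.85 at day 0 and between 7.06 and 7.41 at day 7. All 4 cardiac markers tested rose at day 7. Under the negative control median were 3 of the 5 on every array of days 0, 1 and 3 and 1 of the 5 on every day 7 array, and their part in the Tpm1 signal was not tested. Of 7 skeletal muscle markers (Acta1, Myh1, Myh2, Myh4, Tnnt3, Ckm and Actn3), 5 rose at day 7, beside 12.1% of all genes called higher. Their mean lay between 5.66 and 6.08 at day 0 and between 5.97 and 6.99 at day 7. Under the negative control median lay 4, 5 and 4 of the 7 on the day 0 arrays. On the day 7 arrays 3, 0 and 0 did. Their part in the signals of the 10 genes was not tested.

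Tpm4 was highest at day 1. It encodes a short tropomyosin of non-muscle cells, found on stress fibres and in motile cells. Its signal was 11.96, 12.18 and 12.22 at day 0 and 13.62, 13.95 and 13.80 at day 1. It was 12.85, 13.29 and 13.39 at day 3 and 10.86, 12.40 and 12.09 at day 7. The arrays of days 1 and 3 all lay above those of day 0, and the day 7 arrays lay on both sides. At day 1 Tpm4 was 3.19-fold higher, a change of 1.67 ± 0.34 (adjusted p = 0.0311). At day 3 the change was 1.06 ± 0.34 (adjusted p = 0.0745), and at day 7 it was -0.33 ± 0.34 (adjusted p = 0.459), neither called. Without day 7 replicate 1, the array with the lowest signal over background, the day 7 change was 0.13 and the day 3 change, still 1.06, was called (adjusted p = 0.00653). The day 1 call was lost when any 1 of the day 0 or day 1 arrays was left out, and also without day 3 replicate 2 or 3, although the size stayed between 1.59 and 1.76: without day 1 replicate 3 it was 1.67 (adjusted p = 0.0521).

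Tpm3, another gene of short non-muscle tropomyosins that also makes the form of slow skeletal muscle, had the smallest differences of the 10 at days 3 and 7. It read 7.85, 7.80 and 8.11 at day 0 and 8.56, 8.62 and 8.56 at day 1. It read 8.14, 8.53 and 8.69 at day 3 and 7.61, 8.40 and 8.13 at day 7. The arrays of days 1 and 3 lay above all day 0 arrays, as for Tpm4, and those of day 7 overlapped them. Differences from day 0 were 0.66 ± 0.20, 0.54 ± 0.20 and 0.12 ± 0.20 at days 1, 3 and 7 (adjusted p = 0.113, 0.117 and 0.647), and none passed. Without day 1 replicate 3 the day 1 difference was 0.67 (adjusted p = 0.166). After quantile normalization of the arrays, the day 1 and day 3 differences of 0.71 and 0.56 did pass (adjusted p = 0.0473 and 0.0491). Macrophages also use short tropomyosins. The mean of 6 macrophage markers (Cd68, Adgre1, Csf1r, C1qa, C1qb and Mrc1) lay between 7.07 and 7.44 at day 0. It lay between 8.71 and 9.45 at day 1, where 5 of the 6 rose. At day 3 it lay between 8.71 and 9.39, and all 6 rose. At day 7, where neither Tpm3 nor Tpm4 was called, it lay between 8.03 and 9.33 and 5 of the 6 rose. All 6 markers lay above the negative control median on all 12 arrays. Over these arrays the macrophage mean had r = 0.83 with Tpm3 and 0.65 with Tpm4, and its part in either signal was not tested. Of 5 endothelial markers (Pecam1, Cdh5, Kdr, Tek and Vwf), 0 were called at days 1 and 3, and 1 fell at day 7. Their mean was 9.57 ± 0.41 at day 0 and 9.94 ± 0.24 at day 1 (SD, n = 3). It was 9.42 ± 0.52 at day 3 and 8.87 ± 0.40 at day 7. Like Tpm4 it was highest at day 1, but unlike Tpm4 it was not above day 0 at day 3. The part of endothelial cells in either signal was not tested.

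**Figure D2:**
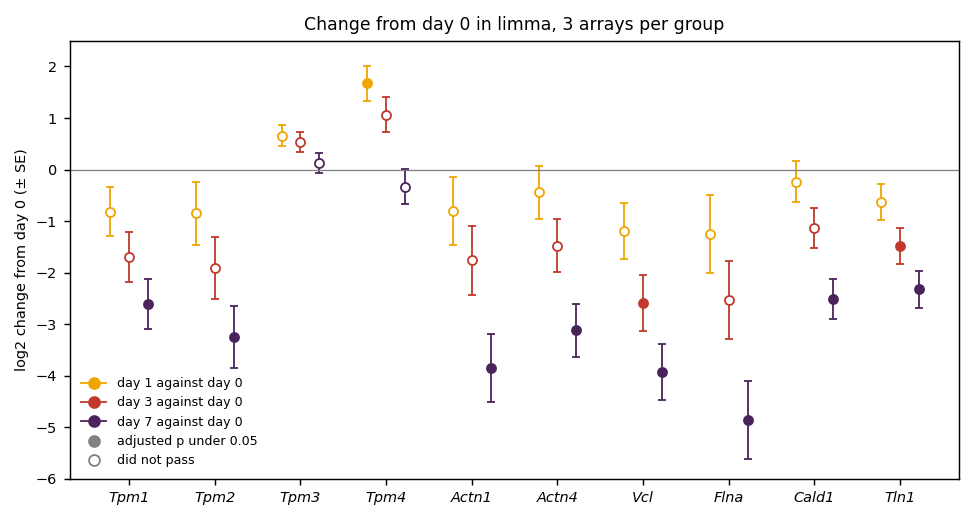
Log2 change from day 0 (limma estimate ± SE, 3 arrays per group) of the 10 genes at day 1, 3 and 7, filled where the adjusted p was under 0.05. Tpm3 and Tpm4 lie above 0 at days 1 and 3, and the other 8 genes lie below 0 at all 3 days, farthest at day 7.

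The non-muscle and muscle tropomyosin genes changed unequally. To compare them, the log2 difference between a pair was taken within each array and set to 0 at the day 0 mean, and 4 tropomyosin pairs and 1 actinin pair were tested. The difference Tpm4 minus Tpm1 was 2.83, 3.05 and 1.57 on the day 1 arrays. It was 1.80, 3.05 and 3.45 at day 3 and 1.76, 3.37 and 1.70 at day 7. All 9 treated arrays lay above the day 0 arrays, which lay between -0.14 and 0.16. The means at days 1, 3 and 7 were 2.49 ± 0.80, 2.76 ± 0.86 and 2.28 ± 0.95 (SD, n = 3), within the spread of one another. The exact permutation test of the one-way F statistic over all 15400 splits of the arrays into groups of 3 gave p = 0.0151, and 0.0251 after adjustment over the 5 pairs.

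Tpm4 minus Tpm2 behaved alike, with means of 2.52 ± 0.89, 2.97 ± 1.11 and 2.91 ± 1.31 at days 1, 3 and 7 (SD, n = 3; exact permutation p = 0.0254, adjusted 0.0317). Tpm3 minus Tpm2 reached 1.51 ± 0.92, 2.45 ± 1.11 and 3.37 ± 1.17 (exact permutation p = 0.0137, adjusted 0.0251). Tpm3 minus Tpm1 reached 1.48 ± 0.81, 2.24 ± 0.85 and 2.74 ± 0.82 (exact permutation p = 0.0114, adjusted 0.0251). In these 3 pairs too, each of the 9 treated arrays lay above each day 0 array, the least being 0.46, for Tpm3 minus Tpm2 on day 1 replicate 3. The parts of the difference varied by day: for Tpm4 minus Tpm1 it combined 1.67 for Tpm4 with -0.82 for Tpm1 at day 1, and -0.33 with -2.61 at day 7. The 4 pairs share 4 genes and are not independent of one another. Leaving out any 1 of the day 0 arrays ended all 4 calls, with adjusted p between 0.0714 and 0.0918. So did the replicate number as a block (adjusted p = 0.0590). Leaving out day 3 replicate 2 ended the call of Tpm4 minus Tpm2 (adjusted p = 0.0550). The pairs were not tested with the control difference (positive minus negative control features) as a covariate. That difference had r = 0.88 with Tpm1, 0.84 with Tpm2, 0.04 with Tpm3 and 0.28 with Tpm4 over the 12 arrays. With it as a covariate in limma, neither Tpm1 (-1.44, adjusted p = 0.244) nor Tpm2 (-2.01, adjusted p = 0.240) was called at day 7.

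**Figure D3:**
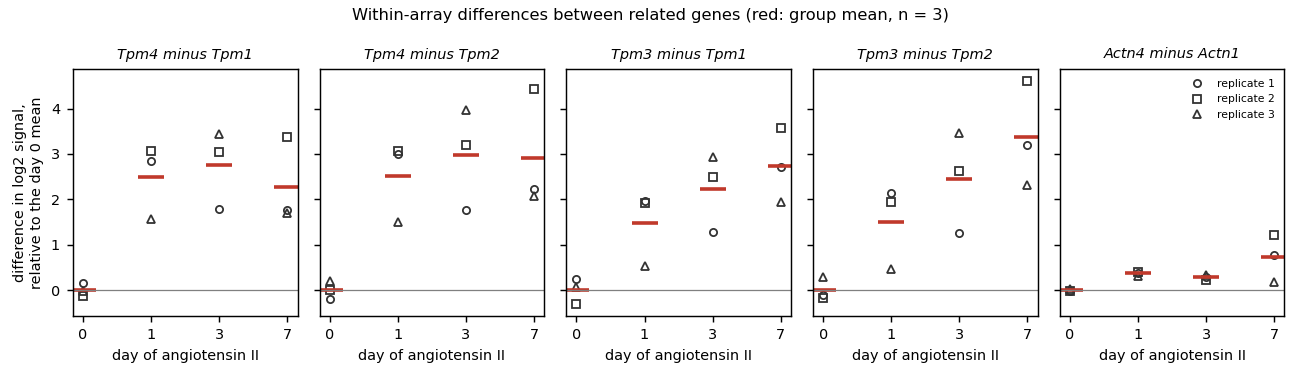
Within-array log2 difference between related genes, relative to the day 0 mean, at each day (symbols by replicate number, red bars the group means, n = 3). In every panel the 9 treated arrays lie above the 3 day 0 arrays, and the actinin difference is the smallest.

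Cald1 was called at day 7 and not before. It read 12.19, 12.50 and 12.31 at day 0 and 11.62, 12.03 and 12.65 at day 1. It read 11.47, 11.25 and 10.87 at day 3 and 9.55, 9.15 and 10.75 at day 7. The day 1 arrays spanned those of day 0, and the arrays of days 3 and 7 lay below them. The day 1 difference, -0.23 ± 0.39 (adjusted p = 0.904), was the smallest of the 8 falling genes, and the day 3 difference was -1.14 ± 0.39 (adjusted p = 0.0952). At day 7 Cald1 was 5.72-fold lower, a change of -2.52 ± 0.39 (adjusted p = 0.00342).

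Of the cross-linkers, filamin A had the largest change of the 10 genes. Flna makes a long dimer that joins filaments at right angles and binds integrin tails. Its signal was 19.17, 19.21 and 19.22 at day 0 and 17.05, 17.75 and 19.05 at day 1. It was 17.06, 16.69 and 16.26 at day 3 and 13.58, 13.15 and 16.31 at day 7. All 9 treated arrays lay below the day 0 arrays, so that Flna was the only 1 of the 10 with no overlap in that direction at day 1, against 11.5% of all genes. The differences of -1.25 ± 0.76 at day 1 (adjusted p = 0.504) and -2.53 ± 0.76 at day 3 (adjusted p = 0.0620) did not pass. The day 7 change of -4.86 ± 0.76, 29.0-fold, did (adjusted p = 0.00349). Day 0 values lie 0.711 or more below the ceiling, where signals may already be compressed, which was not tested.

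Actn1 and Actn4 encode the 2 non-muscle alpha-actinins, rod-shaped dimers that bundle filaments in dense bodies and stress fibres. Actn1 read 15.51, 15.78 and 15.66 at day 0 and 14.01, 14.66 and 15.85 at day 1. It read 14.10, 13.98 and 13.58 at day 3 and 11.05, 10.87 and 13.49 at day 7. On day 1 replicate 3 it lay above every day 0 array, and at day 7 replicates 1 and 2 lay more than 2 units below replicate 3. The changes were -0.81 ± 0.66, -1.76 ± 0.66 and -3.85 ± 0.66 at days 1, 3 and 7 (adjusted p = 0.676, 0.119 and 0.00500). Only the last, 14.4-fold, passed.

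Actn4 read 13.73, 13.99 and 13.92 at day 0 and 12.63, 13.28 and 14.40 at day 1. It read 12.62, 12.44 and 12.15 at day 3 and 10.06, 10.32 and 11.91 at day 7. As for Actn1, the day 1 arrays lay on both sides of day 0 and the later arrays below. Its changes were -0.44 ± 0.52, -1.47 ± 0.52 and -3.12 ± 0.52 (adjusted p = 0.822, 0.0983 and 0.00434), and the day 7 change was 8.67-fold. The difference Actn4 minus Actn1 relative to day 0 had means of 0.37 ± 0.04, 0.29 ± 0.06 and 0.73 ± 0.52 at days 1, 3 and 7 (SD, n = 3). It lay above the day 0 arrays on all 9 treated arrays, but the exact permutation p of 0.05, unchanged by adjustment, did not pass. After quantile normalization it did (adjusted p = 0.0246).

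The adhesion linkers Vcl and Tln1 were the genes already called at day 3. Flna, not called then, differed by more (-2.53) than Tln1 (-1.48), and whether the linkers fell before the other genes was not tested. Talin binds integrin tails and exposes sites for vinculin when it is stretched, and vinculin then ties it to actin. Vcl read 13.76, 13.89 and 14.17 at day 0 and 11.82, 12.53 and 13.91 at day 1. It read 11.58, 11.33 and 11.14 at day 3 and 9.11, 9.96 and 10.96 at day 7. The arrays of days 3 and 7 were separate from those of day 0, and day 1 replicate 3 was the only array of its day within the day 0 range. The day 1 difference was -1.19 ± 0.54 (adjusted p = 0.319), and -1.77 without day 1 replicate 3 (adjusted p = 0.0690). The change was -2.59 ± 0.54 at day 3 (adjusted p = 0.0181), 6.02-fold, and -3.94 ± 0.54 at day 7 (adjusted p = 0.00220), 15.3-fold, and Vcl fell at both.

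Tln1 read 11.04, 11.35 and 11.26 at day 0 and 10.004, 10.39 and 11.36 at day 1. It read 9.92, 9.78 and 9.50 at day 3 and 8.35, 8.86 and 9.46 at day 7. Replicate 3 at day 1 again stood at or above the day 0 values, and no array of days 3 or 7 reached them. The differences were -0.63 ± 0.35 at day 1 (adjusted p = 0.452), -1.48 ± 0.35 at day 3 (adjusted p = 0.0286) and -2.32 ± 0.35 at day 7 (adjusted p = 0.00308). The day 7 change was 5.01-fold. Both day 3 calls were lost when day 0 replicate 2 or 3, or day 3 replicate 2 or 3, was left out, and that of Tln1 also without day 0 replicate 1 (adjusted p = 0.0626), without day 3 replicate 1 (adjusted p = 0.0516) and after quantile normalization (adjusted p = 0.0671). Without day 7 replicate 3 all 8 falling genes were called at day 3, and 2713 of all genes, in place of 2593.

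The 8 day 7 calls were kept when any 1 array was left out. With the control difference as a covariate, however, the day 7 changes of the 8 shrank to between -3.04 and -1.19, with a median of -1.83, and only Vcl was called (-2.18 ± 0.47, adjusted p = 0.0448). Over all genes that fit called 771 at day 7, in place of 5570. In that fit Tpm4 was called at day 1 (2.04 ± 0.28, adjusted p = 0.0147) and at day 3 (1.73 ± 0.33, adjusted p = 0.0439).

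The order of the days was steady for the 8 falling genes, whose means stepped down from day 0 to day 1, day 3 and day 7, but no call separated neighbouring treated days. Day 3 against day 1 had 0 of the 10 called in limma, with differences from -1.40 (Vcl) to -0.12 (Tpm3), and 3 with an unadjusted p under 0.05. Over all genes 0.0% were called in that comparison. Day 7 against day 3 also had 0 of the 10 called, where 0.267% of all genes were, and 7 had an unadjusted p under 0.05. The differences ran from -2.33 (Flna) to -0.41 (Tpm3), and for Tpm4 it was -1.40 ± 0.34 (adjusted p = 0.133).

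Day 7 against day 1, a comparison added after the data were seen, had 7 of the 10 called, all lower at day 7, beside 2.91% of all genes called lower and 1.88% called higher. Tpm4 was 4.01-fold lower at day 7 than at day 1, a difference of -2.01 ± 0.34 (adjusted p = 0.0213). Each day 7 array lay below each day 1 array for all 10 genes, against 11.3% of genes, Tpm3 included (-0.53 ± 0.20, not called). These calls depended on nearly every array. Without day 1 replicate 2 or 3, 0 of the 10 were called, and 43 and 180 of all genes, in place of 1056. Without day 0 replicate 1, 2 or 3 the calls numbered 2, 3 and 2, without day 3 replicate 1, 2 or 3 they numbered 6, 2 and 4, and without day 7 replicate 1 or 2 they numbered 2 and 2. In the same order, the calls over all genes numbered 398, 467 and 391, then 800, 417 and 505, and then 560 and 448. Without day 1 replicate 1 or day 7 replicate 3, 9 of the 10 were called, and 3163 and 3779 of all genes. A fit on the 6 arrays compared, or with the control difference as a covariate, called 0 of the 10, and 2 and 363 of all genes. The 7 calls share the day 1 and day 7 arrays with the comparisons against day 0.

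Over the 12 arrays the 8 falling genes followed one another closely. Pearson r among them lay between 0.940 and 0.996, with a median of 0.968 over 28 pairs. The highest was between Vcl and Tln1 and the lowest between Vcl and Cald1. Tpm3 and Tpm4 had r = 0.91 with each other. With the 8, Tpm4 had r between 0.21 and 0.43 and Tpm3 between -0.11 and 0.13. These values describe 12 arrays that share their days, their labelling and their differences in signal over background, and the day groups alone give genes of like course a high r.

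The 5 genes with a pattern most like Tpm2 over these arrays were the smooth muscle myosin heavy chain gene Myh11 and the calponin gene Cnn1 (r = 0.988 and 0.987), Tpm1 (0.986), the myosin light chain kinase gene Mylk (0.985) and Cspg4 (0.983). Those most like Vcl were Tln1 (0.996), the integrin-linked kinase gene Ilk (0.991), the perlecan gene Hspg2 (0.991), Slmap (0.989) and Hcfc1 (0.987). Those most like Tpm4 were others: Calu (0.975), Clic1 (0.971), P4hb (0.959), Uggt1 (0.956) and Dnmt1 (0.950). Calumenin (Calu), protein disulfide isomerase (P4hb) and Uggt1 are proteins of the endoplasmic reticulum, and Dnmt1 keeps DNA methylation through replication. Of these 5 only Dnmt1 rose at day 1 (0.91, adjusted p = 0.00549) and day 3 (0.69, adjusted p = 0.00734), and none was called at day 7.

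The smooth muscle markers moved with the 8 falling genes. Their mean over the 6 markers had r between 0.943 and 0.985 with each of the 8 over the 12 arrays, 0.13 with Tpm4 and -0.20 with Tpm3. At day 7, 5 of the 6 markers fell, led by Myh11 (-6.40 ± 1.07) and Cnn1 (-5.82 ± 0.82), and Des (-1.24 ± 0.44, adjusted p = 0.0611) did not pass. In whole vessel RNA, fewer smooth muscle cells and less of these transcripts per cell cannot be told apart. The control difference also had r between 0.81 and 0.93 with the 8, 0.28 with Tpm4 and 0.04 with Tpm3, and its part was not tested beyond the fit with it as a covariate. Fibroblast markers went the other way, with a mean of 14.18 to 15.04 at day 0 and 16.01 to 16.64 at day 7, where 3 of the 4 tested rose. Among these markers Dcn read an identical 16.47 on most arrays, all 3 of day 7 included.

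**Figure D4:**
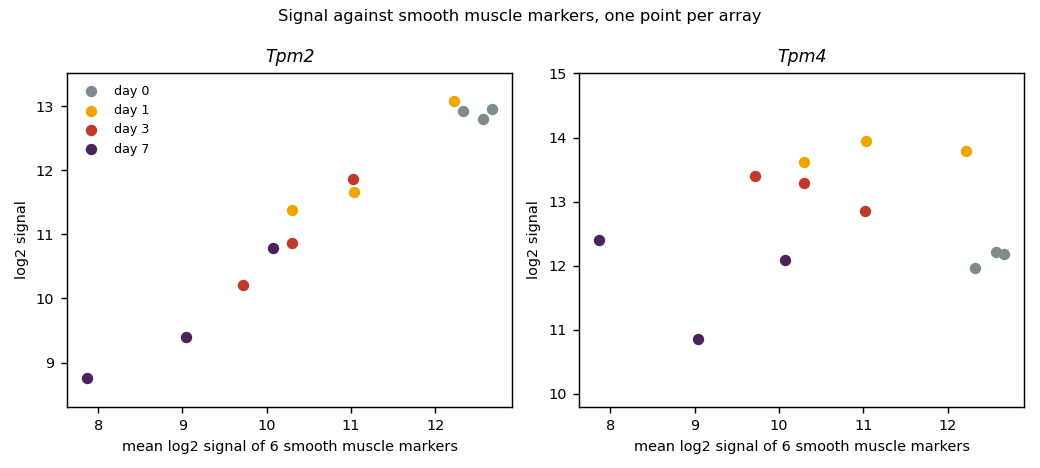
Log2 signal of Tpm2 (left) and Tpm4 (right) on each of the 12 arrays against the mean log2 signal of 6 smooth muscle markers, coloured by day. Tpm2 falls along one line with the markers (r = 0.985), whereas Tpm4 does not follow them (r = 0.13).

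Other genes of the actin system are given from lists by role, beginning with the paralogs of the 10. Of all genes tested, 1.99% were called higher and 1.63% lower at day 1, and 4.61% and 7.14% at day 3. At day 7 the shares were 12.1% and 13.2%, with 24.6% called lower among genes with a mean signal of 10 or more. Of 6 tested paralogs, none was called at day 1, Actn2, the striated muscle actinin, fell at day 3 (-1.37, adjusted p = 0.0386) and the alpha-catenin gene Ctnna1, a vinculin relative of cell junctions, fell at day 7 (-1.30, adjusted p = 0.0110). The muscle filamin gene Flnc differed by -2.04 at day 7 (adjusted p = 0.0555) and the second talin gene Tln2 by 0.48 (adjusted p = 0.0820), neither called. Tln1 and Tln2 thus had day 7 differences of opposite sign, and the difference between them was not tested.

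Focal adhesion genes, the longest of these lists, had the most calls. Of 19 tested, 0 were called at day 1, 8 fell at day 3 and 17 fell at day 7, with a day 7 median of -2.82. The largest falls at day 7 were those of the integrin gene Itga8 (-7.46 ± 1.28), the LIM domain genes Pdlim3 (-5.22 ± 0.72) and Lpp (-3.86 ± 0.56), and the filament-binding gene Nexn (-3.34 ± 0.59). Paxillin (Pxn, -0.01 ± 0.08) and Lims1 (-0.30 ± 0.17) were not called.

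Among 14 other cross-linkers, genes moved both ways. At day 1, 3 rose and 0 fell: Lcp1 (1.16), the bundling plastin of leukocytes, Lima1 (0.81) and Eps8 (0.78). At day 3, 2 rose and 3 fell. At day 7, 5 fell and 3 rose. The falls were led by Synpo2 (-5.99 ± 0.76), a dense body protein of smooth muscle, dystrophin (Dmd, -4.83 ± 1.01), the plastin Pls3 (-4.04 ± 0.45) and utrophin (Utrn, -1.83 ± 0.46). The 3 that rose were Lcp1 (1.20 ± 0.25), Eps8 (0.56 ± 0.09) and the fascin gene Fscn1, for which no size is given because its 3 day 0 values were below those of the median negative control. The plastins Pls3 and Lcp1 were thus called in opposite directions.

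Of 4 actin genes tested, none was called at day 1, 1 fell at day 3 and 3 fell at day 7. Those of day 7 were smooth muscle Actg2 (-3.72 ± 0.54), Acta2 (-3.14) and cytoplasmic Actb (-1.23 ± 0.35, adjusted p = 0.0335). Acta2 lay at the ceiling on 7 arrays, including all 3 of day 0, so its fall is a lower bound. Actb repeated values between arrays (16.73 at day 0, 16.65 at days 1 and 3), and whether its signal levels off was not tested. Of 10 genes acting at filament ends, 0 were called at day 1, 3 fell at day 3 and 4 fell at day 7: the leiomodin gene Lmod1 (-4.15 ± 0.74), which is also among the smooth muscle markers, gelsolin (Gsn, -2.15 ± 0.39), Capzb (-1.19 ± 0.18) and Tmod1. Tmod1 lay under the negative control median on 10 of the 12 arrays, including all of day 7, so no size is given for it, and Lmod1 lay under it on day 7 replicate 2. Of 12 genes of actin turnover, Tmsb10, which encodes a thymosin that sequesters actin monomers, rose at days 1, 3 and 7 (0.65, 0.68 and 0.65). In that list 3 fell at day 3 and 8 at day 7. The day 7 falls were led by destrin (Dstn, -3.45 ± 0.57), Wdr1 (-2.43 ± 0.45), Cap2 (-2.43 ± 0.35) and Cap1 (-1.80 ± 0.30).

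**Figure D5:**
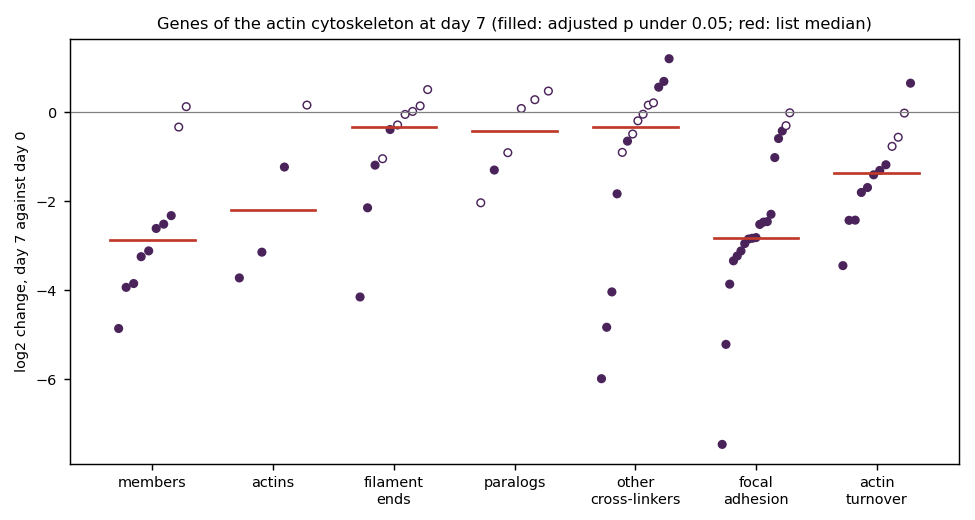
Log2 change at day 7 against day 0 of the 10 genes and of 6 lists of actin cytoskeleton genes (1 point per gene, filled where the adjusted p was under 0.05, red bars the list medians). The 10 genes and the focal adhesion genes have medians of -2.86 and -2.82, and the 3 other cross-linkers that rose lie between 0.56 and 1.20.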

How the data were processed

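Signals of 72688 features on 12 arrays were used as deposited: log2 values per transcript cluster that the authors had made in Expression Console (Affymetrix), a tool the submitters' processing notes name. Not given in the sources used here were its version, background correction and normalization. Another array design is named in the labels than the identifiers show, and the identifiers were followed. Symbols came from the platform annotation, with old ones updated through RefSeq. Of the transcript clusters with 1 symbol the one with the highest mean was kept per gene (30702 genes), and 22066 genes with at least 3 of 12 arrays at or above 5.25, the 40th percentile, were tested. R 4.3.3 and limma 3.58.1 fitted a mean per group on all 12 arrays (8 residual degrees of freedom), with Benjamini-Hochberg adjustment over all genes tested.

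Pairs of genes were compared by exact permutation of all arrays, two-sided by construction of the F statistic. The number of arrays limits the precision, and p-values measure the spread between arrays described as biological replicates. Members, lists and tests were chosen with earlier results of these data known. All 10 genes are named, with up to 4 called genes of largest change per list and 5 pattern neighbours for each of Tpm2, Tpm4 and Vcl. Alternatives were quantile normalization, median centring, other filters, the mean of a gene's clusters, a variance trend, a replicate block, covariates for control features and adipose markers, the 6 arrays compared alone, and each array left out. For the pairs only quantile normalization, the mean of a gene's clusters, the replicate block and each array left out were run. Deviations from the group means of same-numbered arrays had r = 0.61, 0.36 and 0.66 between days 1 and 7, and -0.36, 0.13 and -0.51 between days 1 and 3. Arrays of different number were not compared, so a pairing was not tested, and the labels state none. The fits were tested on simulated data.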

Additional observations from a re-analysis of the deposited data

Results flagged for a closer look

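The change from day 0 differed between day 1 and day 7 for 7 of the 10 genes, by limma's test of day 7 against day 1, which called 4.79% of all genes. None of the 7 was called without day 1 replicate 2 or 3, in a fit on the 6 arrays compared, or with the control difference as a covariate. Those fits called 43, 180, 2 and 363 of all genes, in place of 1056. The change at day 7 was lower than that at day 1 by the amount given for each: -2.01 for Tpm4, -3.04 for Actn1, -2.67 for Actn4, -2.75 for Vcl, -3.61 for Flna, -2.28 for Cald1 and -1.69 for Tln1. Each of the 3 day 7 arrays lay below each of the 3 day 1 arrays in these 7 genes. Tpm4 was the one of the 7 with a change above 0 at day 1 (1.67, called) and below 0 at day 7 (-0.33, not called).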

How the results depend on the processing

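The 8 day 7 calls were kept under 9 of the 10 other settings and with each array left out (8 to 8 called). With the control difference as a covariate the calls numbered 1 at day 3 (Tpm4, higher), 1 at day 7 (Vcl), 0 for day 7 against day 1 and 1 in the F test, and over all genes the day 7 calls numbered 771 in place of 5570. Over all genes that fit called 464 at day 3, 363 for day 7 against day 1 and 935 in the F test, in place of 2593, 1056 and 3217. With adipose markers as a covariate the calls numbered 0 at day 1, 0 at day 3 and 6 in the F test. Over all 22066 genes that fit called 7 at day 1, 50 at day 3 and 1057 in the F test, in place of 799, 2593 and 3217. Quantile normalization gave 2 calls at day 1 (Tpm3 and Tpm4) and, at day 3, Tpm3 and Vcl in place of Vcl and Tln1. Over all genes it gave 433 calls at day 1 and 1813 at day 3. A fit on the 6 arrays compared gave 9 at day 3, where it called 4523 of all genes, and 0 for day 7 against day 1, where it called 2. Centring the arrays, the 60th percentile filter and the variance trend each gave 3 calls at day 3. Over all genes they gave 2051, 2602 (of 15485 tested) and 2446. The cause of these changes was not tested. Over all genes, fits without 1 array called 101 to 1105 at day 1, 702 to 3497 at day 3 and 2837 to 7471 at day 7. They called 0 to 1 for day 3 against day 1 and 10 to 272 for day 7 against day 3. For day 7 against day 1 they called 43 to 3779, and in the F test 1008 to 4308. Leaving out 1 array gave 0 to 2 calls at day 1, 0 to 8 at day 3, 0 to 0 for day 3 against day 1, 0 to 3 for day 7 against day 3, 0 to 9 for day 7 against day 1 and 4 to 9 in the F test. It gave adjusted exact permutation p from 0.0172 to 0.0840 for Tpm4 minus Tpm1, 0.0172 to 0.0918 for Tpm4 minus Tpm2, 0.0141 to 0.0840 for Tpm3 minus Tpm1 and for Tpm3 minus Tpm2, and 0.000649 to 0.0936 for Actn4 minus Actn1. Actn4 minus Actn1 passed after quantile normalization (0.0246). The replicate number as a block gave 1 call at day 1, 3 at day 3 and 8 at day 7, and adjusted p = 0.0590 for each of the 4 tropomyosin pairs, which no longer passed. Over all days, deviations of same-numbered arrays had r from -0.51 to 0.66, with 7 of 18 pairs above 0.1. Between days 1 and 7 all 3 pairs did (0.61, 0.36 and 0.66), and there the block left the 7 calls of day 7 against day 1 unchanged in number and in genes. Whether the number pairs the arrays of any days was not tested, since arrays of different number were not compared. Values not called changed sign in these cases. With the control covariate Actn4 and Cald1 at day 1 were 0.18 and 0.12 and Tpm4 at day 7 was 0.58. With the adipose covariate Tpm2, Actn1, Actn4 and Cald1 at day 1 were 0.065, 0.20, 0.37 and 0.40. With centred arrays Tpm3 at day 7 was -0.15. Leaving out 1 array gave -0.51 to 0.0050 for Cald1 at day 1, -0.24 to 0.031 for Tpm3 at day 3 against day 1, -0.64 to 0.13 for Tpm4 at day 7 and -0.051 to 0.34 for Tpm3 at day 7, where the signs turned without day 1 replicate 1, day 3 replicate 1, day 7 replicate 1 and day 7 replicate 2.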
